A study of Mus musculus with 6 samples.

Results

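Extracellular nucleotide and adenosine signalling was examined in primary calvarial osteoblasts, the bone-forming cells of the skull cap, through 9 genes: the ATP-gated channels P2rx7 and P2rx4, the nucleotide receptors P2ry2 and P2ry6, the adenosine receptors Adora1, Adora2a and Adora2b, and the ectonucleotidases Entpd1 and Nt5e. These 9 genes were named by function among the 55471 genes of the count table, but the list was chosen by their earlier results in the same comparison of WT and TCKO, so all their values below are a description and their number past a threshold supports nothing. RNA was taken from osteoblasts of 3-day-old C57BL/6 mice that were wild type (WT, 3 libraries) or TET1/2/3 triple knockout, that is Prx1-Cre with homozygous floxed Tet1, Tet2 and Tet3 (TCKO, 3 libraries), and polyadenylated RNA was sequenced. Prx1-Cre is active in limb and skull mesenchyme, so cells of other origins in a culture keep intact alleles. The labels do not say whether the WT mice carried floxed alleles or how many animals made a library, so the p-values measure the spread between libraries, which may be partly technical.

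Cells release ATP through channels and vesicles, and the released nucleotide acts on P2X channels, which let in calcium, and on P2Y receptors, which act through G proteins. Ectonucleotidases on the cell surface cut ATP and ADP to AMP, and Nt5e (CD73) cuts AMP to adenosine. Adenosine acts on its own receptors, of which Adora2a and Adora2b raise cyclic AMP through Gs and adenylyl cyclase, while Adora1 acts through Gi. In bone these receptors are studied for their effects on osteoblast differentiation, mineralization and the response to load, and P2X7 is also well known in macrophages and osteoclasts.

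The libraries held between 8019999 and 10177214 counts, at which 3 counts are worth 0.299 to 0.373 CPM (counts out of 1000000 in a library, with TMM factors). Replicates 1 and 2 of a genotype lay close together, with counts that differed by a chi-square of 1.69 (WT) and 2.04 (TCKO) for each degree of freedom, against 16.5 to 23.3 for pairs with replicate 3. In replicate 3 of both genotypes mitochondrial genes took 2.22% (WT) and 2.47% (TCKO) of the counts, against 1.11% to 1.24% elsewhere, and TCKO replicate 3 alone had the female pattern of Xist (4583 counts) and Ddx3y (0 counts). Tet1 was covered by 98, 131 and 115 reads in WT (replicates 1, 2 and 3) against 68, 51 and 51 in TCKO, and was lower in TCKO (log2 fold change -0.97 ± 0.16, SE; adjusted p = 0.00648). Tet2 (-0.14 ± 0.14, adjusted p = 0.545) was not called and Tet3 (0.51 ± 0.09, adjusted p = 0.00745) was higher in TCKO. These counts cover whole genes and not the deleted exons alone. Of the osteoblast markers, Col1a1 and Sparc were abundant in both genotypes, at means of 22300 and 9880 CPM in WT and 14600 and 5100 CPM in TCKO. The markers of late maturation Bglap, Bglap2 and Dmp1 had 5 counts or fewer in every library.

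Adora2b rose 9.64-fold in TCKO and P2ry2 rose 2.18-fold, whereas P2rx7 fell 2.11-fold and P2rx4 fell by 0.35 on the log2 scale. Of the 9 genes, 7 had counts high enough to be tested. Of these, 2 were higher and 2 lower at an adjusted p under 0.05, and 3 did not pass. Among all 13826 tested genes 9.07% were higher and 8.63% lower by the same threshold, so the genes called here are a chosen set whose share cannot be read against that background. With a fold change over 2 as well, 2 members were higher and 1 lower, where the shares of all tested genes were 3.16% and 3.19%. In 4 of the 7 tested members the 3 WT and 3 TCKO CPM values did not overlap, which held for 38.3% of all tested genes, and the untested Adora1 did not overlap either. The median log2 fold change of the 7 tested members was -0.35, and that of all tested genes was 0. Without replicate 3 of both genotypes, a fit chosen after seeing the data, 3 members were higher and 4 lower, where the shares of all tested genes also grew, to 22.6% higher and 22.5% lower.

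**Figure D1:**
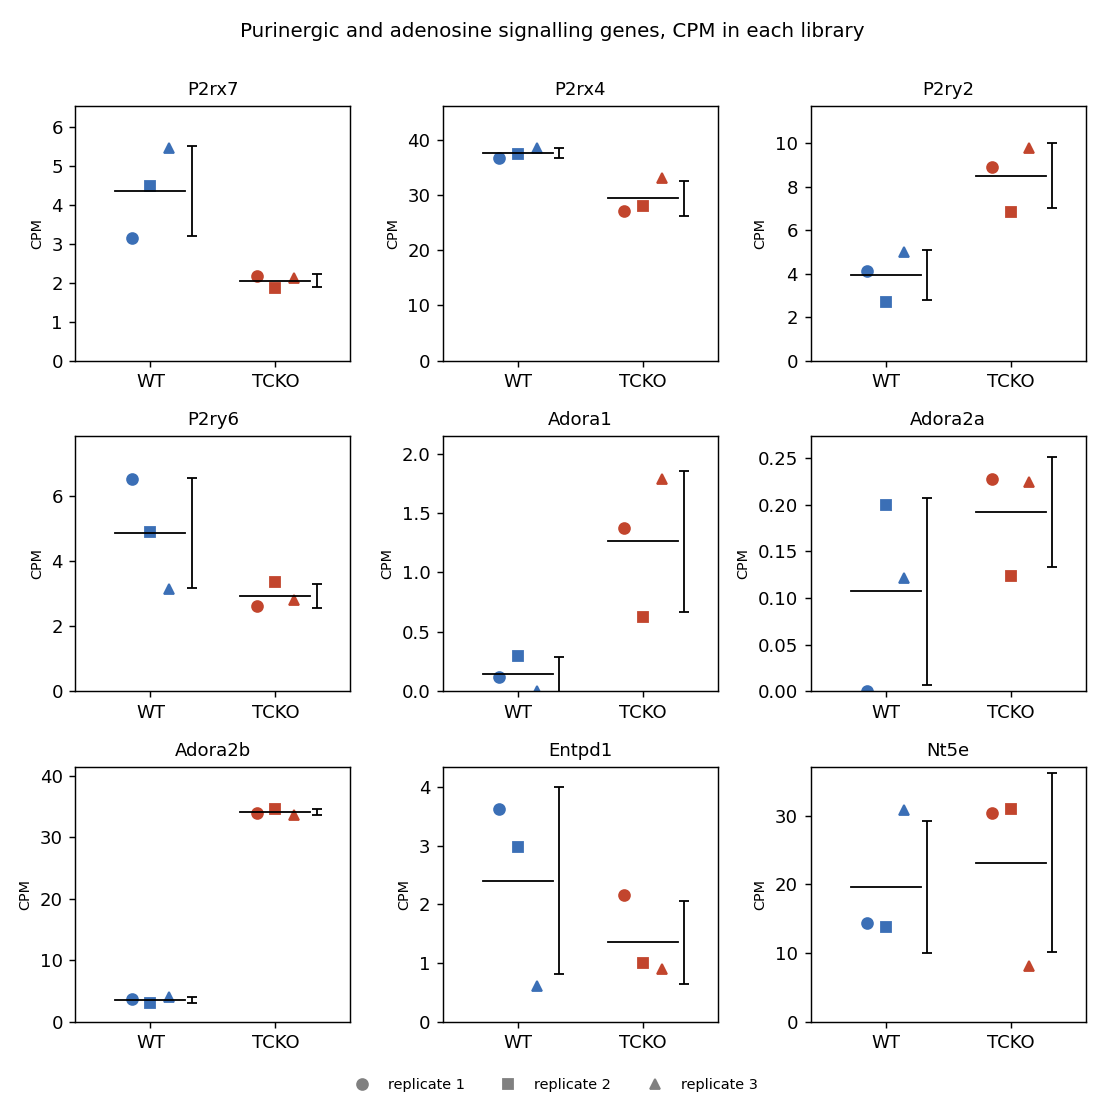
CPM of the 9 genes (vertical axes, linear from 0 and different in each panel) in the 3 WT and 3 TCKO libraries (horizontal axes), with a symbol for each replicate number, a horizontal line at the mean and a bar of 1 SD. The 3 TCKO values of Adora2b sit between 33.7 and 34.6 CPM, above the 3 WT values of 2.99 to 4.0, whereas replicate 3 of Nt5e lies on the opposite side from replicates 1 and 2 in both genotypes.

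Promoter sequences are given for the 4 members that passed the threshold, because the enzymes deleted in TCKO act on methylated cytosine, which in mammals lies mainly in CpG dinucleotides. Each window runs from 250 bases before to 50 bases after a RefSeq transcription start of GRCm38.p6, in the direction of the gene, with every CG in capitals. The windows are Adora2b at chr11:62248734-62249033 (plus strand), P2ry2 at chr7:101012004-101012303 (minus strand), P2rx7 at chr5:122643677-122643976 (plus strand) and P2rx4 at chr5:122707294-122707593 (plus strand).
Adora2b: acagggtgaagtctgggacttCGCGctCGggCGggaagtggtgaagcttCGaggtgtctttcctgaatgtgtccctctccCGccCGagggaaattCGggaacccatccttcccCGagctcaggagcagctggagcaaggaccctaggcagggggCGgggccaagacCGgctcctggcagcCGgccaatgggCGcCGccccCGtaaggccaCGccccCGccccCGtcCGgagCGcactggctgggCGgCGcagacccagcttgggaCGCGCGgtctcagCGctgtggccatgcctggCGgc
P2ry2: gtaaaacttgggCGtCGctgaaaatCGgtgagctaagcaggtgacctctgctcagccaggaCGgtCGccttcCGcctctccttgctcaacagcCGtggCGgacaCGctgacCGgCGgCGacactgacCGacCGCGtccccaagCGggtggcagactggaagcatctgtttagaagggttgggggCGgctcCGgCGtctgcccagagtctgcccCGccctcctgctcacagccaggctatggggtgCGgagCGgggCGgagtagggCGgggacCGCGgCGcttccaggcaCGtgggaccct
P2rx7: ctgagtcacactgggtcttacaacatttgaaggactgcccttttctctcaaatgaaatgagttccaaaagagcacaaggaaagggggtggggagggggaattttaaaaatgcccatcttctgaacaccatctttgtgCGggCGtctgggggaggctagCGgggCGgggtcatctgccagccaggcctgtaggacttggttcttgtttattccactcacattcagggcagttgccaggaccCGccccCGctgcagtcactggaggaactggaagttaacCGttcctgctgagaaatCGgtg
P2rx4: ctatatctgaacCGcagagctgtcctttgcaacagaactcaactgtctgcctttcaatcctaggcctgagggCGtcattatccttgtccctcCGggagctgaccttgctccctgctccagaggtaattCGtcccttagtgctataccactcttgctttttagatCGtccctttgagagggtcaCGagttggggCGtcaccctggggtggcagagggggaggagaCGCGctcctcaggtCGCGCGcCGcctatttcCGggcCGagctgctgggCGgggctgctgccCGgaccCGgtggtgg

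The Adora2b window held 27 CpGs and the P2ry2 window 28, while the P2rx4 window held 18 and the P2rx7 window 8. The median over 32851 RefSeq mouse promoters of this length was 7. As many CpGs or more were found in 15.5% of those promoters for Adora2b, 14.2% for P2ry2, 29.7% for P2rx4 and 48.6% for P2rx7. Both members that were higher in TCKO thus had more CpGs in the window than both that were lower, a description of 4 windows with no test. Among members without a call, the window nearest the gene start held 23 CpGs for Entpd1, 23 for Nt5e and 26 for Adora1. Entpd1, lower in TCKO by value, thus had more CpGs than P2rx4. Further RefSeq starts had 30 CpGs for P2ry2, 4 for P2rx7, 24 for Adora1 and 10 for Entpd1. The P2ry2 start of the printed window lies 813 bases inside the gene start of the deposited annotation. The starts of the other printed windows lie within 16 bases of the deposited gene start. The letters TGTGGT, a form of the core that RUNX factors bind, were searched on both strands. They occurred in none of the 4 windows and in 16.8% of all promoters. Other forms of that core were not searched, so a window without TGTGGT may still hold a RUNX core. Methylation was not measured in these libraries. From separate bisulfite sequencing the paper reports, with data not shown, a hypermethylated P2rx7 promoter in osteoblasts lacking the TET enzymes. It does not say which bases it took as that promoter, so the report cannot be set against the window printed here.

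P2rx7 encodes the P2X7 channel, which opens at high ATP and is known for pore formation and inflammasome activation. P2rx7 (ENSMUSG00000029468, chr5:122643911-122691432, plus strand) had 3.15, 4.49 and 5.45 CPM in WT replicates 1, 2 and 3 and 2.17, 1.86 and 2.13 CPM in TCKO. Every WT value was above every TCKO value, at low counts of 26 to 45 against 15 to 19 per library. P2rx7 thus fell by 1.08 ± 0.27 on the log2 scale (SE; adjusted p = 0.0313). The call was lost without WT replicate 2 (adjusted p = 0.106), WT replicate 3 (0.0575), TCKO replicate 1 (0.0886) or TCKO replicate 2 (0.105), with log2 fold changes between -1.12 and -0.90. Over all alternatives the adjusted p ran from 0.011 to 0.155.

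P2rx4 encodes the P2X4 channel, which is gated by lower ATP and sits largely in lysosomal membranes. Its counts were the highest of the members in WT. P2rx4 (ENSMUSG00000029470, chr5:122707544-122729738, plus strand) had 36.8, 37.5 and 38.5 CPM in WT and 27.2, 28 and 33.1 CPM in TCKO. The WT values were tightly grouped and lay above all TCKO values, of which replicate 3 was the nearest to WT. The log2 fold change was -0.35 ± 0.10 (SE; adjusted p = 0.0441), and DESeq2 gave an adjusted p of 0.0762. The call was lost without WT replicate 1 (0.118), WT replicate 2 (0.13), WT replicate 3 (0.0672), TCKO replicate 1 (0.146) or TCKO replicate 2 (0.143), and over all alternatives the adjusted p ran from 0.000102 to 0.311.

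P2rx7 and P2rx4 are neighbours on chromosome 5, with 16.1 kb between them and 1 other gene, untested, in that gap. Camkk2, which encodes a calcium-dependent kinase and whose nearer end lies 1432 bases beyond P2rx4, had a log2 fold change of -0.36 ± 0.14 (adjusted p = 0.126). Ift81, on the other side of P2rx7 at 29393 bases, had one of 0.10 ± 0.15 (adjusted p = 0.70). The microRNA gene Mir8115 lies within a P2rx7 exon and had 0 counts in every library.

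P2ry2 encodes a Gq-coupled receptor for ATP and UTP. P2ry2 (ENSMUSG00000032860, chr7:100996568-101012866, minus strand) had 4.12, 2.69 and 4.97 CPM in WT and 8.90, 6.84 and 9.76 CPM in TCKO. The genotypes did not overlap, and within each genotype replicate 2 was the lowest. The log2 fold change was 1.13 ± 0.26 (SE; adjusted p = 0.0227). The call was lost without WT replicate 1 (0.0751), WT replicate 2 (0.073) or TCKO replicate 1 (0.0798), while the fold change stayed at 0.90 or above on the log2 scale. The adjusted p ran from 9.19e-06 to 0.135 over all alternatives.

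P2ry6, which encodes a receptor for UDP, lies next to P2ry2 on chromosome 7, with 21.9 kb and no other gene between them. P2ry6 (ENSMUSG00000048779, chr7:100937630-100974649, minus strand) had 6.54, 4.89 and 3.15 CPM in WT and 2.63, 3.36 and 2.80 CPM in TCKO. WT replicate 3 fell below TCKO replicate 2, so the genotypes overlapped. The log2 fold change of -0.73 ± 0.30 (SE) did not pass (adjusted p = 0.134), and without WT replicate 3 it was -0.96 (adjusted p = 0.033; 0.00252 to 0.45 over all alternatives). The neighbours of the pair, Arhgef17 below P2ry6 (0.03 ± 0.07, adjusted p = 0.802) and Fchsd2 above P2ry2 (0.14 ± 0.09, adjusted p = 0.315), were not called.

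Adora2b encodes the low-affinity adenosine receptor, which couples to Gs and in many cell types also to Gq. Adora2b (ENSMUSG00000018500, chr11:62248984-62266453, plus strand) had 3.63, 2.99 and 4.0 CPM in WT and 34.0, 34.6 and 33.7 CPM in TCKO. The raw counts were 30, 30 and 33 against 298, 278 and 300. The 3 TCKO libraries lay within 1 CPM of each other, replicate 3 included, and far above the WT libraries. Adora2b rose by 3.27 ± 0.13 on the log2 scale (SE; adjusted p = 2.67e-05), the 52nd highest of 13826 tested genes. Adora2b was under 0.05 in all 15 alternatives, with adjusted p-values of up to 0.00932 and log2 fold changes from 3.15 to 3.38. Of its neighbours, Specc1, 25971 bases away, was higher in TCKO (0.81 ± 0.08, adjusted p = 0.000635), and Zswim7, 771 bases away, was at 0.12 ± 0.23 (adjusted p = 0.753).

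Adora1, the Gi-coupled receptor, was too low to be tested, with 1, 3 and 0 reads for WT against 12, 5 and 16 for TCKO. Every TCKO library held more counts than every WT library. Against 3 counts in each WT library, a mean of 0.342 CPM, its TCKO mean of 1.26 CPM was at least 3.69-fold higher. In a fit without a filter on low counts, over 26350 genes, its adjusted p was 0.00884. Adora1 (ENSMUSG00000042429, chr1:134199223-134235431, minus strand) shares 1162 exon bases with Mybph on the opposite strand, and whether reads were counted by strand is not stated, so its counts are uncertain. Mybph itself was at 2, 3 and 11 reads for WT against 6, 3 and 0 for TCKO.

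Adora2a (ENSMUSG00000020178, chr10:75316877-75334784, plus strand), the high-affinity Gs-coupled receptor, was at 0, 2 and 1 reads for WT against 2, 1 and 2 for TCKO. All of these are below 3 counts, a true level at which a library can still read 0, so no difference was detectable at this depth. Adora2b held 93 of the 104 counts over the 4 adenosine receptor genes in WT, Adora3 included, and 876 of 914 in TCKO.

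Entpd1 encodes CD39, which cuts ATP and ADP to AMP. Entpd1 (ENSMUSG00000048120, chr19:40612366-40741602, plus strand) had 3.63, 2.99 and 0.606 CPM in WT and 2.17, 0.994 and 0.897 CPM in TCKO. WT replicate 3 was the lowest library of all, and the genotypes overlapped. The log2 fold change of -0.83 ± 0.62 (SE) did not pass (adjusted p = 0.40), and with replicates 1 and 2 only it was -1.03 (0.012; 0.012 to 0.75 over all alternatives). It shares no exon bases with the other 3 gene models that overlap it on the same strand, each at 2 counts or fewer in any library.

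Nt5e encodes CD73, the surface enzyme that makes adenosine from AMP. Nt5e (ENSMUSG00000032420, chr9:88327197-88372092, plus strand) had 14.4, 13.8 and 30.8 CPM in WT and 30.4, 31.0 and 8.08 CPM in TCKO. In replicates 1 and 2 TCKO was higher than WT, and in replicate 3 TCKO was lower. The log2 fold change over all libraries was 0.24 ± 0.50 (SE; adjusted p = 0.785). With replicate 3 of both genotypes left out, an alternative chosen after seeing the data, it was 1.12 (adjusted p = 1.7e-13; up to 0.99 under the other alternatives), on 2 libraries per genotype that differ little beyond counting error. TCKO replicate 3 is the library with the female pattern and both replicate 3 libraries had the higher mitochondrial share; the part of either in the Nt5e values was not tested. Enpp1, which makes pyrophosphate from ATP, showed the same crossing of libraries, with 13.3, 14.2 and 23.4 CPM in WT and 26.1, 24.6 and 12.6 CPM in TCKO (log2 fold change 0.32 ± 0.31, adjusted p = 0.533).

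The difference between libraries with the same replicate number was taken on the log2 scale of CPM plus 2, with no test. Adora2b was higher in TCKO by 2.68, 2.87 and 2.57 in replicates 1, 2 and 3, and P2ry2 by 0.83, 0.91 and 0.75. P2rx7 was lower in all 3 replicates (-0.30, -0.75 and -0.85), and so was P2rx4 (-0.41, -0.40 and -0.21). P2ry6 was lower in all 3 as well, with a difference that was smallest in replicate 3 (-0.88, -0.36 and -0.10). For Nt5e the difference was 0.98 and 1.06 in replicates 1 and 2 and -1.70 in replicate 3, and for Entpd1 -0.43, -0.74 and 0.15. The called members had no overlap of WT and TCKO values, which fixes their sign in replicate 3 and so adds no support. Both ectonucleotidases, whose values overlapped, changed sign in replicate 3. For Entpd1 that sign rests on only 5 reads in WT replicate 3 against 8 in TCKO replicate 3, too few to read as a reversal. For Nt5e the reads were 254 against 72.

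**Figure D2:**
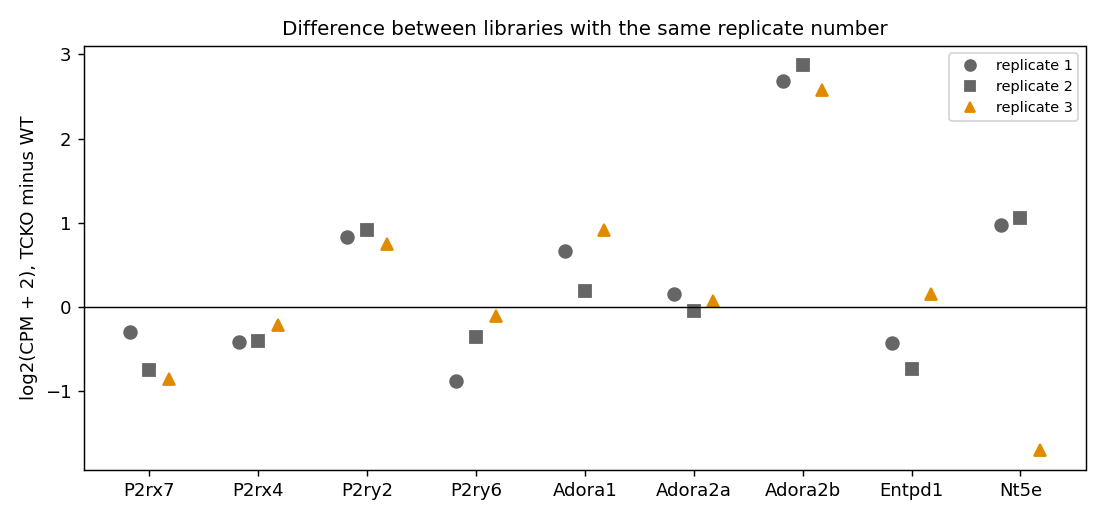
Difference between the TCKO and WT libraries with the same replicate number on the log2 scale of CPM plus 2 (vertical axis) for the 9 genes (horizontal axis); circles, squares and orange triangles are replicates 1, 2 and 3. The Adora2b points lie between 2.57 and 2.87, and the replicate 3 point of Nt5e lies at -1.70 below the other points of that gene at 0.98 and 1.06.

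Levels of the members were compared per gene length, as RPKM (CPM per kilobase of deposited exon length). In WT the order of the mean RPKM was P2rx4 (5.36), Nt5e (2.29), Adora2b (1.92), P2ry6 (1.68), P2ry2 (1.0), P2rx7 (0.731), Entpd1 (0.432), Adora2a (0.0349) and Adora1 (0.0242). Only P2rx4 against Nt5e and Entpd1 against Adora2a were neighbours whose 3 WT values did not overlap, so the middle of this order is not resolved. In TCKO the mean RPKM of Adora2b was 18.5 ± 0.247 (SD, n = 3), above P2rx4 at 4.19 ± 0.457, Nt5e at 2.69 ± 1.52 and P2ry2 at 2.16 ± 0.383. The lowest TCKO levels were those of P2ry6 (1.01), P2rx7 (0.344), Entpd1 (0.243), Adora1 (0.218) and Adora2a (0.0628). Adora2b thus stood amid overlapping neighbours in WT and above all other members in TCKO.

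The other genes of the pathway were read from a list set by function, but with earlier results of these data known. The shares of this list are therefore a description. Of the list, 69 genes were in the table, 42 had enough counts to be tested and 27 did not. Of the 42, 2 were higher (4.76%) and 9 lower (21.4%) at an adjusted p under 0.05, against 9.07% and 8.63% of all tested genes, and 31 did not pass. The median log2 fold change of the 42 was -0.18, against 0 over all tested genes. With a fold over 2, 2 were higher and 4 lower, against 3.16% and 3.19% of all tested genes. In the fit without replicate 3 of both genotypes, chosen after seeing the data, 7 were higher and 20 lower, and 22.6% and 22.5% of all tested genes. With replicates 1 and 2 summed, which leaves 2 samples per genotype, Calhm5 alone of the 11 kept its call (adjusted p = 0.0117). The adjusted p in that fit, the highest over the alternatives for each gene, was 0.0548 for Dpp4, 0.0654 for Alpl, 0.0704 for Adcy2, 0.0862 for Panx3 and 0.113 for Calhm2. It was 0.171 for Entpd5, 0.191 for Slc29a2, 0.197 for Ank, 0.241 for Adcy1 and 0.247 for Adcy5.

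Of the 7 tested genes listed under ATP release 4 were lower, where 8.63% of all tested genes were, a description with the limit given above for the list. Whether each of them, Calhm5 included, releases ATP in these cells was not tested. Panx3, a pannexin channel of osteoblasts and chondrocytes, had 45.8, 45.0 and 79.9 CPM in WT and 4.91, 4.85 and 15.8 CPM in TCKO (log2 fold change -2.72 ± 0.45, adjusted p = 0.00602). Calhm5, of the calcium homeostasis modulator channel family, had 48.2, 48.1 and 39.5 CPM in WT and 9.02, 6.34 and 6.73 CPM in TCKO (-2.62 ± 0.16, adjusted p = 0.000115). Calhm2 of the same family fell less (-0.64 ± 0.10, adjusted p = 0.00498). Ank, which exports ATP and pyrophosphate, fell by 0.53 on the log2 scale (adjusted p = 0.0241), a call lost without WT replicate 1 (0.0664), WT replicate 2 (0.0544), TCKO replicate 1 (0.0922) or TCKO replicate 2 (0.0926). Gja1, the gap junction and hemichannel gene connexin 43, was the most abundant of the group, with 379 CPM in WT and 375 CPM in TCKO (-0.01 ± 0.12, adjusted p = 0.953). Panx1 did not pass (-0.47 ± 0.14, adjusted p = 0.0557), but did with the replicate block (adjusted p = 0.0298) and without WT replicate 3 (0.0142), and not with the block on summed replicates 1 and 2 (0.174), with a range of 0.000311 to 0.327 over all alternatives. Lrrc8a, a subunit of the volume-regulated anion channel, had 0.27 ± 0.13 (adjusted p = 0.191).

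Alpl, the tissue-nonspecific alkaline phosphatase that hydrolyses pyrophosphate and can take nucleotides down to adenosine, had 17.3, 16.3 and 57.6 CPM in WT and 2.51, 1.37 and 3.81 CPM in TCKO. The genotypes did not overlap, with a log2 fold change of -3.54 ± 0.62 (adjusted p = 0.00743). Alpl was both an ectonucleotidase of the pathway list and an osteoblast marker. Among the NTPDases inside the cell, Entpd5, an enzyme of the endoplasmic reticulum, fell by 0.48 on the log2 scale (adjusted p = 0.0213), a call lost without WT replicate 1 (0.0778), WT replicate 2 (0.0867) or TCKO replicate 1 (0.0751). Entpd6 had 0.52 ± 0.23 (adjusted p = 0.159), 0.0268 with the replicate block, 0.152 with the block on summed replicates 1 and 2, and 0.00939 without WT replicate 3 (1.7e-06 to 0.495 over all alternatives). Entpd7 had 0.06 ± 0.14 (adjusted p = 0.815). Entpd4 had 0 counts in every library, as did its near-identical copy Entpd4b, so neither can be read.

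Among the 6 tested genes of adenosine removal and transport, 2 were higher in TCKO, where 9.07% of all tested genes were. Dpp4 was placed in this group by the list, and its part in adenosine removal in these mouse cells was not tested. Dpp4 had few reads, 4, 1 and 1 for WT against 17, 13 and 26 for TCKO (log2 fold change 3.17 ± 0.55, adjusted p = 0.00744). Slc29a2, an equilibrative nucleoside transporter, had 2.42, 2.30 and 3.52 CPM in WT and 5.59, 4.60 and 7.07 CPM in TCKO (1.07 ± 0.26, adjusted p = 0.0282), and its call was lost without WT replicate 1 (0.108), WT replicate 2 (0.114), TCKO replicate 1 (0.0817) or TCKO replicate 3 (0.053). The abundant transporters Slc29a1 (-0.09 ± 0.10, adjusted p = 0.602) and Slc29a3 (-0.24 ± 0.09, adjusted p = 0.0984) and the adenosine kinase gene Adk (-0.24 ± 0.14, adjusted p = 0.295) did not pass.

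Adenylyl cyclases make cyclic AMP downstream of Gs-coupled receptors such as that of Adora2b. Of the 9, 3 were lower and none higher, where 8.63% and 9.07% of all tested genes were. Adcy2 had 21.2, 19.5 and 16.8 CPM in WT and 9.36, 10.4 and 8.08 CPM in TCKO (-1.05 ± 0.15, adjusted p = 0.00337). Adcy1 (-0.98 ± 0.26, adjusted p = 0.038) and Adcy5 (-0.79 ± 0.21, adjusted p = 0.039) also fell. The call of Adcy1 was lost without WT replicate 1 (0.116), WT replicate 2 (0.132), TCKO replicate 1 (0.0852) or TCKO replicate 2 (0.114). That of Adcy5 was lost without WT replicate 1 (0.144), WT replicate 2 (0.142), TCKO replicate 1 (0.0933), TCKO replicate 2 (0.0807) or TCKO replicate 3 (0.0691). Adcy6, the most abundant of the 9 by counts, had 174 CPM in WT and 192 CPM in TCKO (0.14 ± 0.10, adjusted p = 0.345). Adcy3 (-0.21 ± 0.10, adjusted p = 0.187) and Adcy7 (-0.28 ± 0.24, adjusted p = 0.472) did not pass either.

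Of the other groups no gene passed. This held for the 9 tested G protein and phospholipase C genes, among them Gnai2 (-0.03 ± 0.08, adjusted p = 0.851), Gnai3 (0.03 ± 0.07, adjusted p = 0.799) and Gna11 (-0.10 ± 0.07, adjusted p = 0.386). Plcb1 of this group had -0.63 ± 0.28 (adjusted p = 0.156) and passed with the replicate block (0.0484; 0.189 on summed replicates 1 and 2) and without WT replicate 3 (0.0382; 0.00202 to 0.463 over all alternatives), and Gnai1 had -0.30 ± 0.12 (adjusted p = 0.134) and passed without WT replicate 3 (0.0239; 5.87e-06 to 0.562). The 3 tested effectors around the P2X7 inflammasome were Il18 (-0.73 ± 0.25, adjusted p = 0.0795), Gsdmd (-0.44 ± 0.15, adjusted p = 0.0892) and the scramblase gene Ano6 (-0.12 ± 0.08, adjusted p = 0.356). Gsdmd, which encodes the pore-forming gasdermin D, passed with the replicate block (0.0309; 0.166 on summed replicates 1 and 2) and without WT replicate 3 (0.0259; 0.0014 to 0.381 over all alternatives). P2rx5 (0.75 ± 0.28, adjusted p = 0.104; 0.0134 without WT replicate 3, 0.000266 to 0.436 over all alternatives), P2rx6 (-0.41 ± 0.47, adjusted p = 0.601) and P2ry14 (0.40 ± 0.60, adjusted p = 0.691) were the other tested channels and receptors.

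**Figure D3:**
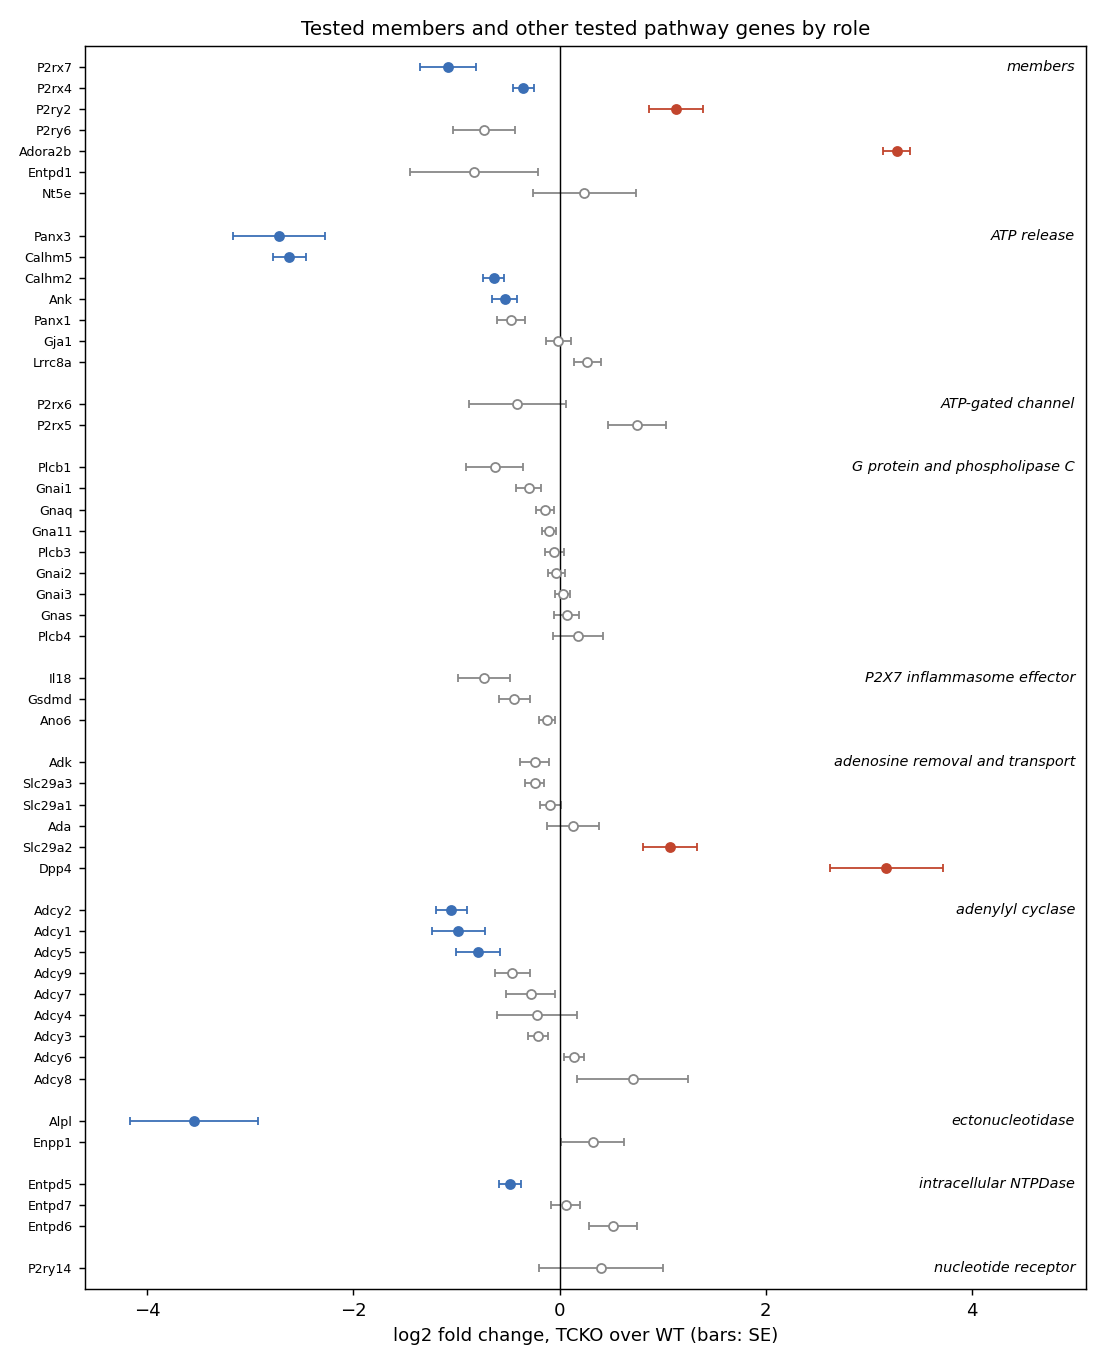
Log2 fold change of TCKO over WT (horizontal axis; bars are 1 SE) for the 7 tested members and 42 other tested pathway genes (vertical axis, grouped by role); filled red and blue points were higher and lower at an adjusted p under 0.05, and open points did not pass. Adora2b at 3.27 and Dpp4 at 3.17 lie at the right, and Alpl at -3.54, Panx3 at -2.72 and Calhm5 at -2.62 at the left.

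Macrophages carry P2X7, P2X4, P2Y6 and CD39, so the genes that mark them were read beside the members that were lower in TCKO by value. Of 18 macrophage genes 17 were tested, and 4 (23.5%) were lower at an adjusted p under 0.05 (Csf1r, Adgre1, Itgam and Spi1). None was higher, where 8.63% of all tested genes were lower and 9.07% higher. The median log2 fold change of the 17 was -0.93. The summed level of the 18 was 853, 868 and 445 CPM in WT replicates 1, 2 and 3 and 596, 640 and 181 CPM in TCKO. Without Lyz2, the most abundant, it was 258, 252 and 120 against 142, 151 and 50.6 CPM. None of the 18 was at 0 in all libraries. The macrophage sum was lowest in replicate 3 of each genotype, as was Entpd1, and P2ry6 was lowest there in WT, while P2rx7 in WT and P2rx4 in both genotypes were highest there. The part of these cells in the members' values was not tested, and in bulk RNA fewer cells of a type and less RNA per cell cannot be told apart.

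**Figure D4:**
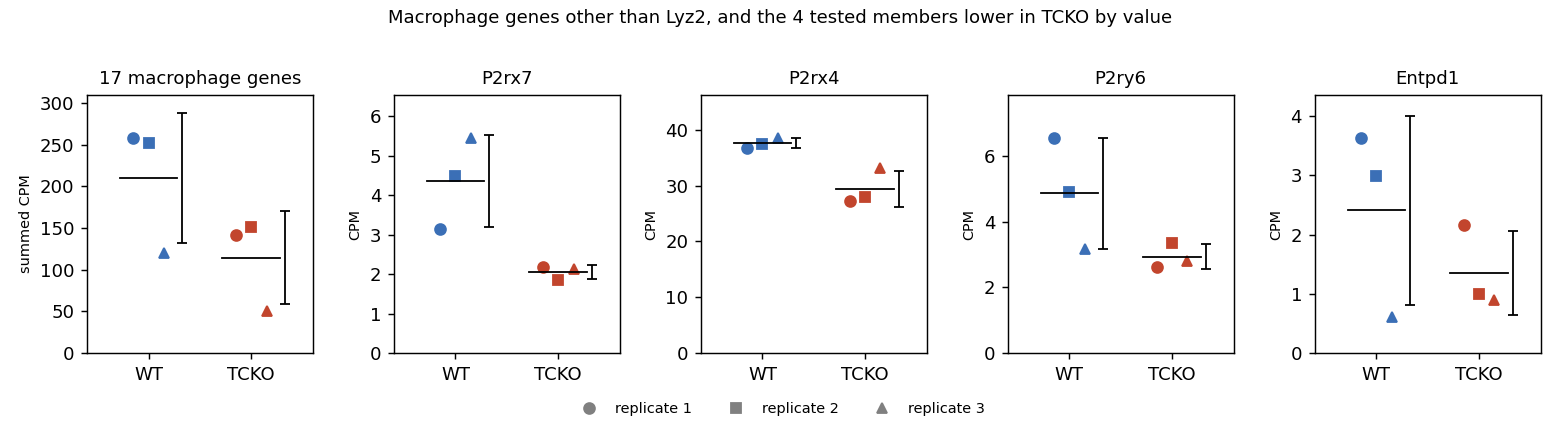
Summed CPM of 17 macrophage genes (Lyz2 left out) and CPM of P2rx7, P2rx4, P2ry6 and Entpd1 (vertical axes, linear from 0) in the WT and TCKO libraries (horizontal axes), with a symbol for each replicate number, the mean and a bar of 1 SD. The macrophage sum was 258, 252 and 120 CPM in WT and 142, 151 and 50.6 CPM in TCKO, with replicate 3 lowest in both genotypes.

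Beside Adora2b, endothelial genes were read because that receptor is known in vessels. Of 9 endothelial genes 3 were tested, of which Kdr (6.12 ± 0.67, adjusted p = 0.00111) and Esam (2.47 ± 0.58, adjusted p = 0.0238) were higher and Egfl7 (0.60 ± 0.36, adjusted p = 0.304) did not pass. By the same threshold 9.07% of all tested genes were higher. The summed level of the 9 was 5.57, 3.59 and 6.55 CPM in WT and 40.0, 42.0 and 103 CPM in TCKO, most of it Kdr in TCKO (mean 53.5 CPM). The defining genes Pecam1, Cdh5, Tie1, Emcn and Cldn5 stayed at means under 1 CPM in both genotypes. Tek, also under 1 CPM and too low to be tested, was at 8, 6 and 6 reads for WT against 2, 2 and 4 for TCKO. The part of endothelial cells in the Adora2b values was not tested. Among osteoblast markers, Runx2 (-0.45 ± 0.07, adjusted p = 0.00397), Col1a1 (-0.61 ± 0.16, adjusted p = 0.038), Sparc (-0.95 ± 0.12, adjusted p = 0.00198) and Alpl were lower, Spp1 was higher (2.62 ± 0.44, adjusted p = 0.00669), and Sp7, Col1a2 and Ibsp did not pass. The shares of all tested genes were 8.63% lower and 9.07% higher.

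For each member under the threshold, the genes with the most similar profile were found among 9262 genes with a mean of at least 100 counts, as the smallest root mean square difference of mean-centred log2 CPM over the 6 libraries. For Adora2b these were Cxcr6 (difference 0.13; 3.03 CPM in WT and 32.9 in TCKO), Gzme (0.26; 2.00 and 23.3 CPM) and Ptgs1 (0.29; 7.79 and 80.4 CPM). For P2ry2 they were Tpx2 (0.15), Ccnb2 (0.16) and Aspm (0.16), with log2 fold changes of 1.05, 1.04 and 0.98. For P2rx7 they were Wwp2, Slc1a5 and Podn (0.14 each), with log2 fold changes of -0.92, -0.81 and -1.09. For P2rx4 they were Me1 (0.024), Ak1 (0.027) and Mef2a (0.034), with log2 fold changes of -0.35, -0.35 and -0.36. The 6 libraries fall into 2 genotypes and include the close replicates 1 and 2, so a small difference is easily reached by any gene with a similar fold change.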

How the data were processed

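Polyadenylated RNA of primary osteoblasts (3 WT and 3 TCKO samples) was sequenced from directional libraries. Per the labels and methods, the authors aligned reads to GRCm38 with STAR 2.7.0e and counted them over exons with featureCounts 2.0.0 (Ensembl release 99); CASAVA and DESeq2 are also listed. The deposited values are raw counts per gene, with no normalization, and an exon length in bp. The strand setting of counting is not given in the sources used here. Symbols were found for 55144 of 55471 genes (99.4%).

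Genotype was tested in edgeR 4.0.16 (R 4.3.3) by the quasi-likelihood test, with filterByExpr (13826 genes kept), TMM factors, all 6 libraries and no covariate. Benjamini-Hochberg adjustment covered every tested gene, and the threshold was 0.05. SEs were derived from the F statistic. Genes at 3 counts or fewer in every WT library were given as a bound. Alternatives were RLE factors, no filter, a mean of at least 50 counts, DESeq2 1.42.0 (also with the study's RPKM minimum of 0.24), the replicate number as a block, each library left out, and replicates 1 and 2 summed, with and without the block. A fit on replicates 1 and 2 alone was chosen after seeing the data. The code was tested on simulated counts.

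Replicate numbers come from the sample titles. Deviations from the group means of libraries with the same number correlated across genes at 0.204, 0.214 and 0.347 (replicates 1, 2 and 3), and the numbers were taken to pair the libraries because each was over 0.1. Replicate 1 of either genotype with replicate 2 of the other gave 0.225 and 0.188, so the values set replicate 3 apart and do not tell replicates 1 and 2 from each other. The members and gene lists were chosen with earlier results of these data known. Named were Tet1, Tet2 and Tet3, all members, pathway genes that passed, up to 3 others per role with the highest counts, genes overlapping or most like a member, and osteoblast markers; neighbouring genes, other marker genes and pathway genes that passed under an alternative or are named as unreadable were added after their values were seen.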

Additional observations from a re-analysis of the deposited data

How the results depend on the processing

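Over the 7 tested members, 15 alternatives gave 102 log2 fold changes, of which 74 kept their direction and side of the threshold, 20 were no longer past it, 4 newly passed it and 4 changed sign, all 4 of Nt5e. Adora2b kept its call in all 15. Nt5e changed sign to -0.01 and -0.03 without TCKO replicate 1 or 2 (range -0.03 to 0.71 with a library left out), to -0.16 with replicates 1 and 2 summed and to -0.22 when these had a replicate block. With the replicate block alone 2 members were higher and 2 lower, as without it, and pathway genes were 3 higher and 12 lower against 2 and 9; the block changed no call of a member or pathway gene other than the 4 given above. The count of members higher in TCKO was 1 with replicates 1 and 2 summed and 1 to 2 with a library left out. That of members lower was 1 with DESeq2 (with or without the RPKM minimum), with no filter and with a minimum mean of 50 counts, 0 with replicates 1 and 2 summed (with or without the block), 4 with replicates 1 and 2 only, and 0 to 2 with a library left out. Pathway genes higher were 0 with a mean of at least 50 counts, 1 with DESeq2 and the RPKM minimum, 0 with replicates 1 and 2 summed, 1 when these had the block, 7 with replicates 1 and 2 only, and 1 to 4 with a library left out. Pathway genes lower were 1 with replicates 1 and 2 summed, 20 with replicates 1 and 2 only, and 5 to 13 with a library left out. Over all tested genes, 217 were higher and 169 lower with replicates 1 and 2 summed, 584 and 566 when these had the block, 3121 and 3116 with replicates 1 and 2 only, and 603 to 1613 and 550 to 1509 with a library left out, against 1254 and 1193. Summing leaves 2 samples per genotype. Replicates 1 and 2 lie nearly within counting error of each other, so fits on them alone rest on a small spread. By CPM in place of RPKM, 5 of the 9 members changed place in the WT order. With CPM plus 0.5 in place of 2, 14 of 27 within-replicate differences moved by more than the spread between replicates and none changed sign. Few counts limit P2rx7, P2ry6 and Entpd1, with means under 50 per library, and the WT values of P2ry2 and Adora2b, and Adora1 and Adora2a were near or below the depth limit.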
